A study of Homo sapiens and Mus musculus with 56 samples.

Results

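The collagen gene family was followed on 56 whole-transcript expression arrays of human glioblastoma cells. The 5 lines were U87M2, U118, U251M2, DBM2 and SF295. Members were all genes with a symbol of the form COL, type number, A and chain number, measured by a probe set that names 1 gene. This gave 43 of 18417 genes on human arrays and 44 of 19938 genes on mouse arrays, with 42 symbols on both. By class, the human members were 11 fibrillar, 6 basement membrane, 10 FACIT (fibril-associated collagens with interrupted triple helices) and 16 other collagens. The mouse members were 11, 6, 9 and 18 in the same order.

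Per the labels, the 28 human arrays hold the 5 lines treated in culture for 7 days with DMSO as vehicle or with V-4084, a small molecule that inhibits the MET receptor kinase. The 28 mouse arrays hold tumours grown under the flank skin of nude mice from each line, dosed for 7 days with vehicle (MC 400 at 0.5% and Tween 80 at 0.05%) or with V-4084 at 30 mg/kg. Nude mice lack a thymus, and a tumour of human cells in a mouse holds RNA of both species. Which species' RNA bound a given probe set was not tested. Groups held 3 arrays, except 2 for both SF295 groups on human arrays, 2 for SF295 with vehicle on mouse arrays and 2 for U251M2 with V-4084 on mouse arrays. The labels do not say that repeats were separate cultures or animals, so p-values measure the spread between arrays, which may be technical. For 3 human arrays the title names DBM2 given V-4084 but other label fields name SF295, and these arrays were placed with DBM2. A narrower spread of values than on the other human arrays was seen on V-4084 arrays of DBM2 (repeat 2, SD 1.75), U251M2 (repeat 1, SD 1.90) and SF295 (repeat 2, SD 1.90), and the other 25 human arrays lay between 2.02 and 2.10. Of 10 glial and neural markers, 9 were above the median human gene in U251M2 with vehicle, 5 in SF295, 4 in DBM2 and 3 in both U118 and U87M2.

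Collagens are triple helices of alpha chains that are hydroxylated and folded in the endoplasmic reticulum, secreted, and trimmed and cross-linked outside the cell. Fibrillar collagens form the tensile fibrils of connective tissue, type IV collagens form the network of basement membranes, and FACIT collagens sit on fibril surfaces. Normal brain parenchyma holds little fibrillar collagen, most of it around vessels and in the meninges, and glioblastoma lines in culture can make collagen themselves.

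COL4A1 and COL4A2, which encode the chains of the most widespread type IV collagen, lie head to head on chromosome 13. The stretch between their start sites is shown because both genes were higher with V-4084 in U87M2. RefSeq (GRCh38.p14) places 126 bases between the start sites, at chr13:110307158-110307283. The region is given on the strand of COL4A2, and capitals mark a CCAAT box (CCAAT) and a GC box (GGGCGG), each searched on both strands.
COL4A1 to COL4A2: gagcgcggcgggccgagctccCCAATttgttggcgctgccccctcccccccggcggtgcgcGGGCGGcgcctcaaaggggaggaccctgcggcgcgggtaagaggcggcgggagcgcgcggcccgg
The stretch was 80.2% G or C and held no TATAAA. In the 126 bases before the start site, 21.1% of 35116 RefSeq promoters held CCAAT, 34.6% held GGGCGG and 5.87% held TATAAA. COL4A4 and COL4A3 share the same head-to-head arrangement with 418 bases between start sites on chromosome 2, and COL4A6 and COL4A5 with 379 or 1415 bases on chromosome X. The 250 bases before the start site of COL12A1 at chr6:75206054-75206303 are shown because it had the second-highest difference of the family in U87M2. They are given on the gene's own minus strand, and capitals mark a GC box on the opposite strand (CCGCCC).
COL12A1: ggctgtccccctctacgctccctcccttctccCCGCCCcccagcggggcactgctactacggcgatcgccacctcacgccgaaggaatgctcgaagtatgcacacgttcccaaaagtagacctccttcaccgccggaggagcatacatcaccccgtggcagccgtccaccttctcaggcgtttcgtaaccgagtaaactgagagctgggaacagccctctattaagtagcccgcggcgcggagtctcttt
This window was 61.2% G or C. GGGCGG on either strand was in 42.6% of all RefSeq promoters over 250 bases and in 24 of 43 promoters (55.8%) of the 31 human members that had an entry. A match is a description of the letters only.

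The first question was how the lines differed with vehicle alone. On human arrays 29 of 43 members differed between the 5 lines (limma's moderated F test, Benjamini-Hochberg adjusted p under 0.05 over all genes, termed called from here on), where 58.4% of all genes were called. The median range over the 5 line means was 0.90 (log2) for members and 0.59 for all genes. U87M2 had the lowest mean for 23 of 43 members, against 25.9% of all genes, and U118 had the highest for 14 members, against 18.4% of all genes. These ranks take in members that were not called, such as COL4A4 (range 0.21) and COL11A2 (range 0.19), which were lowest in U87M2. After quantile normalization of the arrays, U87M2 was lowest for 21 members and U118 highest for 14. All levels below are log2 intensities of 1 probe set and are compared between lines only. In these bulk samples fewer cells of a type and less RNA per cell cannot be told apart.

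**Figure D1:**
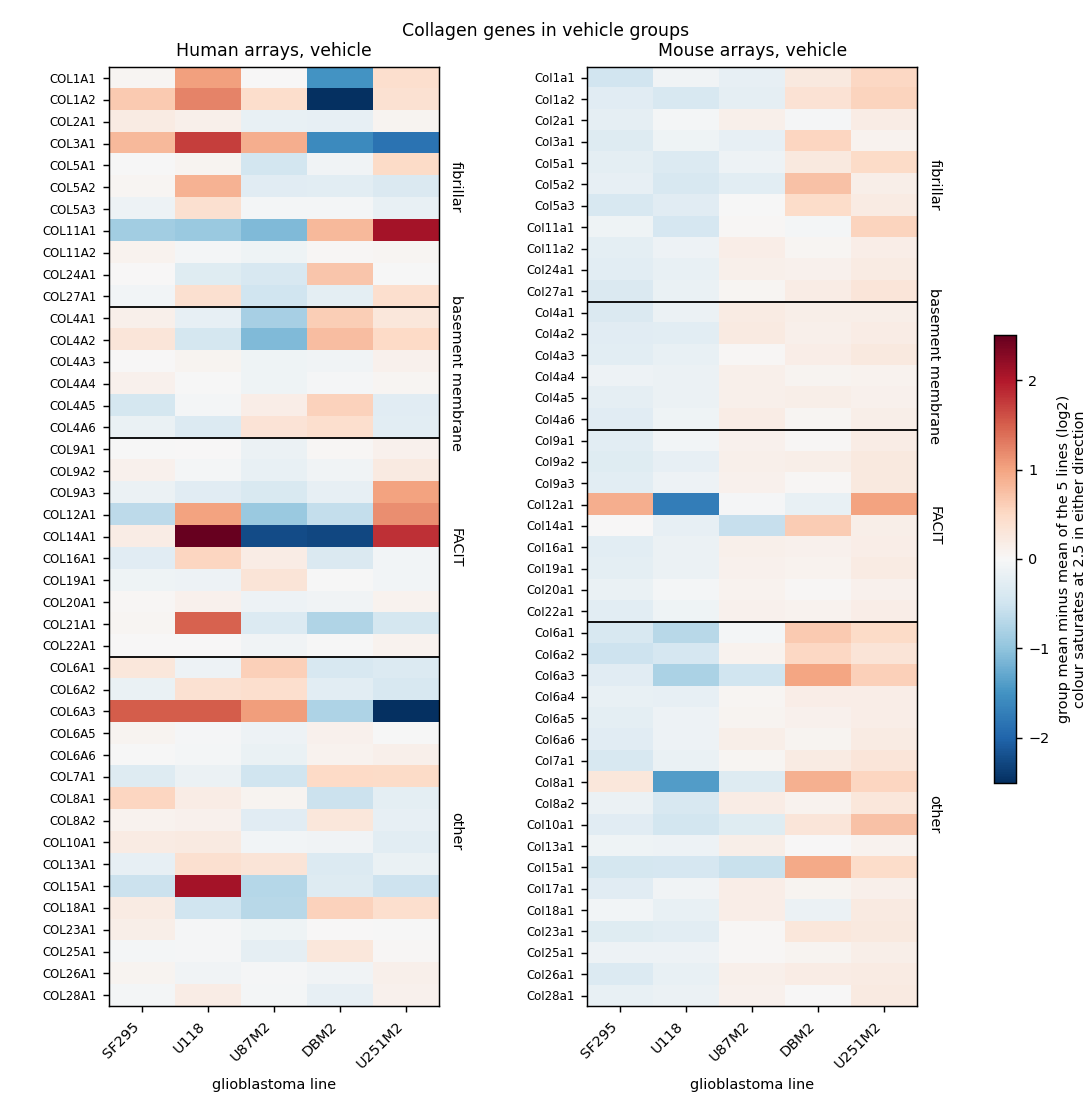
Vehicle levels of every collagen gene, as the group mean of each line minus the mean of the 5 lines (log2, colour), on human arrays (left) and mouse arrays (right), with genes in rows by class. On human arrays COL1A2 was low in DBM2 (8.14) and COL14A1 high in U118 (10.92), and on mouse arrays most rows are lowest in SF295 (27 of 44) or U118 (15 of 44).

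Among the fibrillar collagens, both chains of type I, the main fibril former of skin and bone, were lowest in DBM2. COL1A2 read 8.09, 8.07 and 8.25 on the DBM2 vehicle arrays, against 11.12 to 12.17 on the 11 vehicle arrays of the other lines. COL1A1 read 9.40, 9.40 and 9.76 in DBM2 and 10.69 to 12.05 elsewhere. For both chains no DBM2 array reached any array of another line (adjusted p = 3.31e-19 and 6.75e-13, limma).

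COL3A1, the type III chain that is laid down with type I in soft tissue, split the lines differently. Its vehicle means were 10.08 in SF295 and 10.19 in U87M2, against 7.69 in DBM2 and 7.43 in U251M2, and its U118 arrays read 11.02, 11.05 and 10.94 (adjusted p = 4.02e-17, limma). U251M2 was thus low in COL3A1 while its COL1A1 mean was 11.43, second to U118 at 12.03. COL11A1, a minor fibrillar chain best known from cartilage, was highest in U251M2 at 8.92, followed by DBM2 at 7.65, and lay between 5.73 and 5.98 in the other lines (adjusted p = 9.06e-18, limma).

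In the basement membrane class, COL4A1 and COL4A2 had the same highest and lowest lines. COL4A2 read 8.96, 9.13 and 9.22 in DBM2 and 7.46, 7.25 and 6.99 in U87M2. COL4A1 read 8.23, 8.35 and 8.50 in DBM2 and 7.19, 6.82 and 6.74 in U87M2. The DBM2 and U87M2 arrays did not overlap for either gene (adjusted p over the 5 lines = 2.96e-12 for COL4A2 and 7.42e-09 for COL4A1, limma). COL4A5 and COL4A6 were also called (adjusted p = 1.08e-07 and 1.59e-06, limma), while COL4A3 and COL4A4, the chains known from kidney glomeruli, were not (0.497 and 0.867).

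The FACIT collagens held the member of smallest p. COL14A1, which binds fibril surfaces, had vehicle means of 10.92 in U118, 10.23 in U251M2, 8.59 in SF295, 6.16 in U87M2 and 6.13 in DBM2 (adjusted p = 2.87e-22, limma). The U87M2 arrays (6.03, 6.20 and 6.25) and the DBM2 arrays (5.97, 6.17 and 6.25) overlapped, and no other neighbours in this order did. COL12A1, another fibril-surface collagen, was highest in U251M2 (10.62) and U118 (10.45) and lay between 8.52 and 8.86 in the other 3 lines (2.74e-12). COL21A1 was highest in U118 at 7.85 (9.86e-12), and COL9A3, a type IX chain of cartilage, in U251M2 at 9.03 (9.79e-10).

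Among the other collagens, COL6A3, a chain of the beaded filaments that surround cells, had the widest contrast of its class. It read 12.03 and 12.10 in SF295, 12.03, 12.11 and 12.05 in U118, 11.48, 11.79 and 11.54 in U87M2, 9.90, 9.73 and 9.73 in DBM2, and 7.29, 7.13 and 7.34 in U251M2. SF295 and U118 overlapped, and the U87M2, DBM2 and U251M2 arrays each stood apart (adjusted p = 8.25e-20, limma). COL15A1, a multiplexin at the border of basement membranes, was 8.96 ± 0.05 (SD, n = 3) in U118 and 6.17 to 6.56 in the other lines (2.63e-19). COL18A1, the precursor of endostatin, and COL7A1, the anchoring fibril collagen of skin, were called as well (5.69e-09 and 1.51e-07).

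On the same human vehicle arrays the mean of 12 fibroblast markers ran from 8.75 to 8.90 in U118, 7.31 to 7.41 in DBM2, 7.26 to 7.33 in SF295, 6.97 to 7.19 in U87M2 and 6.52 to 6.68 in U251M2. U118 thus had the highest fibroblast list as well as the highest mean of 14 members. The mean of 10 pericyte and smooth muscle markers was highest in U87M2, from 7.63 to 7.84, then U118, from 7.42 to 7.52, and was at most 7.09 on every vehicle array of the other lines. The part of these lists in the collagen levels was not tested.

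On mouse arrays 41 of 44 members differed between the vehicle tumours of the 5 lines, where 54.3% of all genes were called. The median range was 0.53 (log2) for members and 0.39 for all genes, and 9 members (20.5%) had a range above 1, against 6.05% of all genes. SF295 tumours had the lowest mean for 27 members and U118 tumours for 15, against 37.6% and 23.1% of all genes. U251M2 tumours had the highest mean for 26 members and DBM2 tumours for 12, against 28.1% and 16.3% of all genes. With quantile normalization these counts were 27, 16, 24 and 12.

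Col12a1 differed most in size among mouse members. It read 9.99 and 10.10 in SF295 tumours, 6.90, 7.94 and 7.35 in U118, 8.75, 10.19 and 8.36 in U87M2, 9.26, 9.07 and 8.53 in DBM2, and 9.98, 10.31 and 10.14 in U251M2. U118 tumours lay below all others, and 1 of 3 U87M2 arrays lay among the U251M2 arrays (adjusted p = 8.56e-07, limma). Col8a1, a short-chain collagen of vessel walls, was also lowest in U118 tumours, at 7.88, and highest in DBM2 tumours, at 10.18 (3.21e-07).

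Col6a3 was highest in DBM2 tumours, with 10.01, 10.52 and 10.24, and lowest in U118 tumours, with 8.37, 8.59 and 8.52 (4.67e-08). Col15a1 had the smallest p of the mouse members (3.77e-11). It read 9.46, 9.57 and 9.36 in DBM2 tumours and 9.05, 8.98 and 8.91 in U251M2 tumours, and between 7.87 and 8.26 on the vehicle arrays of the other 3 lines, with no overlap between these 3 levels. Fibrillar members of smallest p were Col11a1 (1.14e-07), highest in U251M2 tumours at 7.72, then Col5a3 (9.04e-07), Col5a2 (1.41e-05) and Col5a1 (2.39e-05), chains that set fibril diameter. Col4a3, Col4a1, Col4a2 and Col4a6 led the basement membrane class, with adjusted p from 2.41e-04 to 0.00288 (limma).

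The fibroblast marker list, averaged per array over 12 genes, ran from 8.15 to 8.26 in DBM2 vehicle tumours, 7.99 to 8.03 in U118, 7.46 to 8.02 in SF295, 7.37 to 7.80 in U251M2 and 7.24 to 8.06 in U87M2. The macrophage list of 10 genes ran from 9.40 to 9.59 in SF295 and U118 tumours, the 2 lines that were lowest for most members, and from 8.26 to 8.73 in the other lines. The skeletal muscle list ran from 8.76 to 10.10 in U118 tumours and from 6.42 to 9.26 elsewhere, and the adipocyte list from 8.08 to 8.51 in U118 and from 6.23 to 7.51 elsewhere. The pericyte and smooth muscle list ran from 8.03 to 8.16 in U251M2 tumours and from 7.49 to 8.07 elsewhere. The endothelial list was highest in U87M2 tumours, from 8.59 to 8.71, and lowest in DBM2 tumours, from 7.74 to 7.97. The part of these lists in the collagen levels was not tested.

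**Figure D2:**
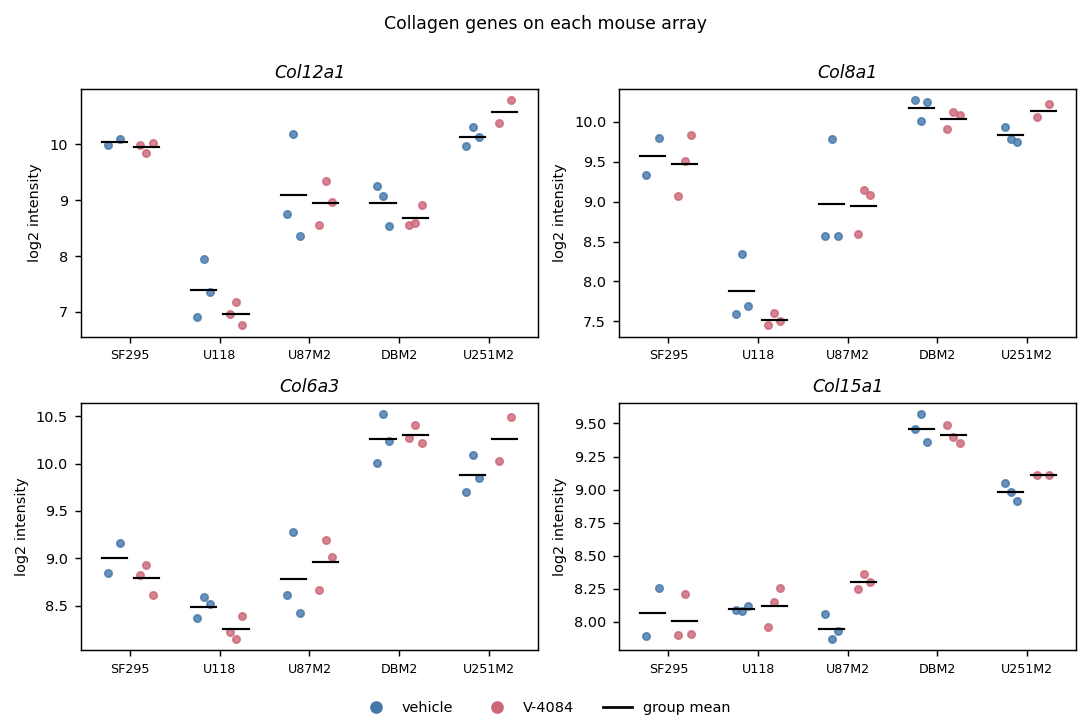
Log2 intensity of Col12a1, Col8a1, Col6a3 and Col15a1 on each mouse array (points) with group means (lines), by line and treatment. Col12a1 is lowest in U118 tumours, and Col15a1 in DBM2 tumours (9.36 to 9.57 with vehicle) lies above the vehicle arrays of every other line.

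The second question was what V-4084 changed. On human arrays of U87M2, 13 of 43 members were called, all 13 higher with V-4084 and none lower, where 5.37% of all genes were called higher and 9.62% lower. By class these were 6 of 11 fibrillar, 2 of 6 basement membrane, 3 of 10 FACIT and 2 of 16 other collagens. Over all human arrays 24 of 43 members had a mean above that of the median gene, 7.15 (log2). COL10A1 (5.74), COL24A1 (5.87), COL21A1 (6.48) and COL15A1 (6.96) were called although their means lay below it. In U87M2 with vehicle the means of COL14A1 (6.16) and COL4A1 (6.91), both called, lay below 7.15 too. The median difference was 0.25 (log2) for members and 0.02 for all genes, and 41 of 43 members had a positive difference, against 53.2% of all genes.

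**Figure D3:**
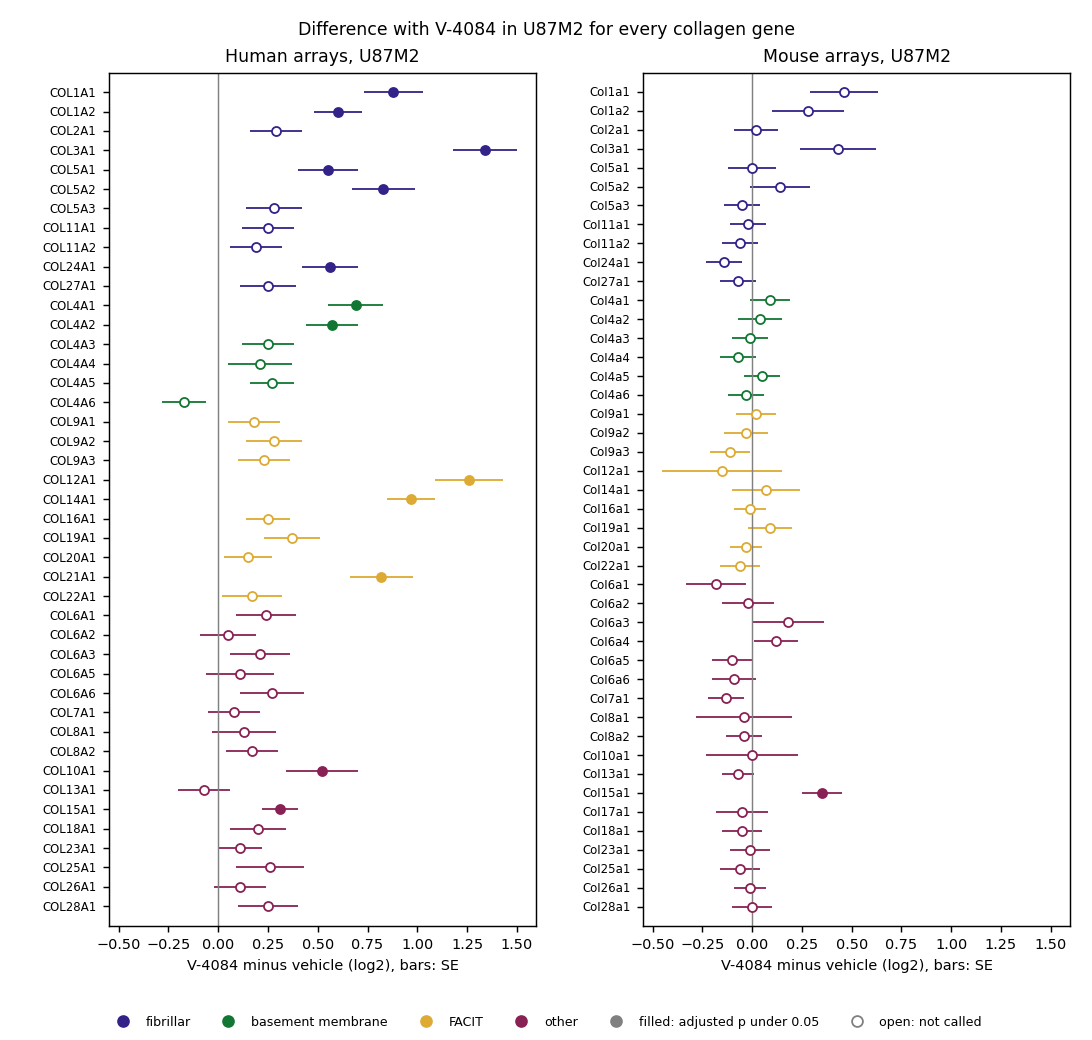
Difference with V-4084 in U87M2 (log2, V-4084 minus vehicle, bars show the standard error) for every collagen gene on human arrays (left) and mouse arrays (right), coloured by class, with filled points for called genes. On human arrays 13 genes are filled, led by COL3A1 at 1.34, and on mouse arrays Col15a1 at 0.35 is the filled point.

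COL3A1 rose most. Its U87M2 arrays read 10.09, 10.57 and 9.90 with vehicle and 11.49, 11.58 and 11.51 with V-4084. The groups did not overlap, and the difference was 1.34 (log2, SE 0.16), or 2.53-fold, with an adjusted p of 1.08e-06 (limma).

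Both type I chains rose with it. COL1A1 read 11.05, 11.30 and 10.69 with vehicle and 11.82, 11.95 and 11.90 with V-4084, a difference of 0.88 (SE 0.15, adjusted p = 0.000103, limma). COL1A2 read 11.21, 11.51 and 11.12 with vehicle and 11.84, 11.91 and 11.89 with V-4084, a difference of 0.60 (SE 0.12, adjusted p = 0.001, limma). Neither chain's groups overlapped. COL5A2 and COL5A1, whose chains assemble into type V collagen inside type I fibrils, rose by 0.83 (SE 0.16, adjusted p = 0.000571) and 0.55 (SE 0.15, adjusted p = 0.0118) by the same test. The other fibrillar member called was COL24A1, at 0.56 (SE 0.14).

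In the basement membrane class the 2 genes of the printed chromosome 13 stretch rose together. COL4A1 read 7.19, 6.82 and 6.74 with vehicle and 7.79, 7.53 and 7.48 with V-4084. COL4A2 read 7.46, 7.25 and 6.99 with vehicle and 8.03, 7.75 and 7.63 with V-4084. The groups did not overlap for either, and the differences were 0.69 (SE 0.14, adjusted p = 0.000654) and 0.57 (SE 0.13, adjusted p = 0.00261, limma). The other head-to-head pairs were not called.

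Of the FACIT collagens, COL12A1 read 8.21, 9.11 and 8.22 with vehicle and 9.53, 9.88 and 9.91 with V-4084. The highest vehicle array stayed below the lowest V-4084 array, and the difference was 1.26 (SE 0.17, adjusted p = 4.27e-06, limma). COL14A1 read 6.03, 6.20 and 6.25 with vehicle and 7.28, 6.99 and 7.10 with V-4084, a difference of 0.97 (SE 0.12, adjusted p = 3.07e-06, limma). Its U87M2 level with V-4084 (mean 7.12) was still below the vehicle means of SF295, U251M2 and U118. COL21A1 rose by 0.82 (SE 0.16, adjusted p = 0.000498, limma).

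Of the other collagens, COL15A1 rose by 0.31 (SE 0.09, adjusted p = 0.0237) and COL10A1, the collagen of growth plate cartilage, by 0.52 (SE 0.18, adjusted p = 0.0465, limma). The COL10A1 call was lost in 19 of 28 fits that each left out 1 array, which included arrays of all 5 lines. COL15A1 lost its call without U87M2 vehicle repeat 3, V-4084 repeat 1 or V-4084 repeat 2, as did COL5A1. COL10A1 and COL15A1 also lost theirs with quantile normalization. The type VI chains COL6A1, COL6A2 and COL6A3 differed by 0.24 (SE 0.15), 0.05 (SE 0.14) and 0.21 (SE 0.15) and were not called.

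**Figure D4:**
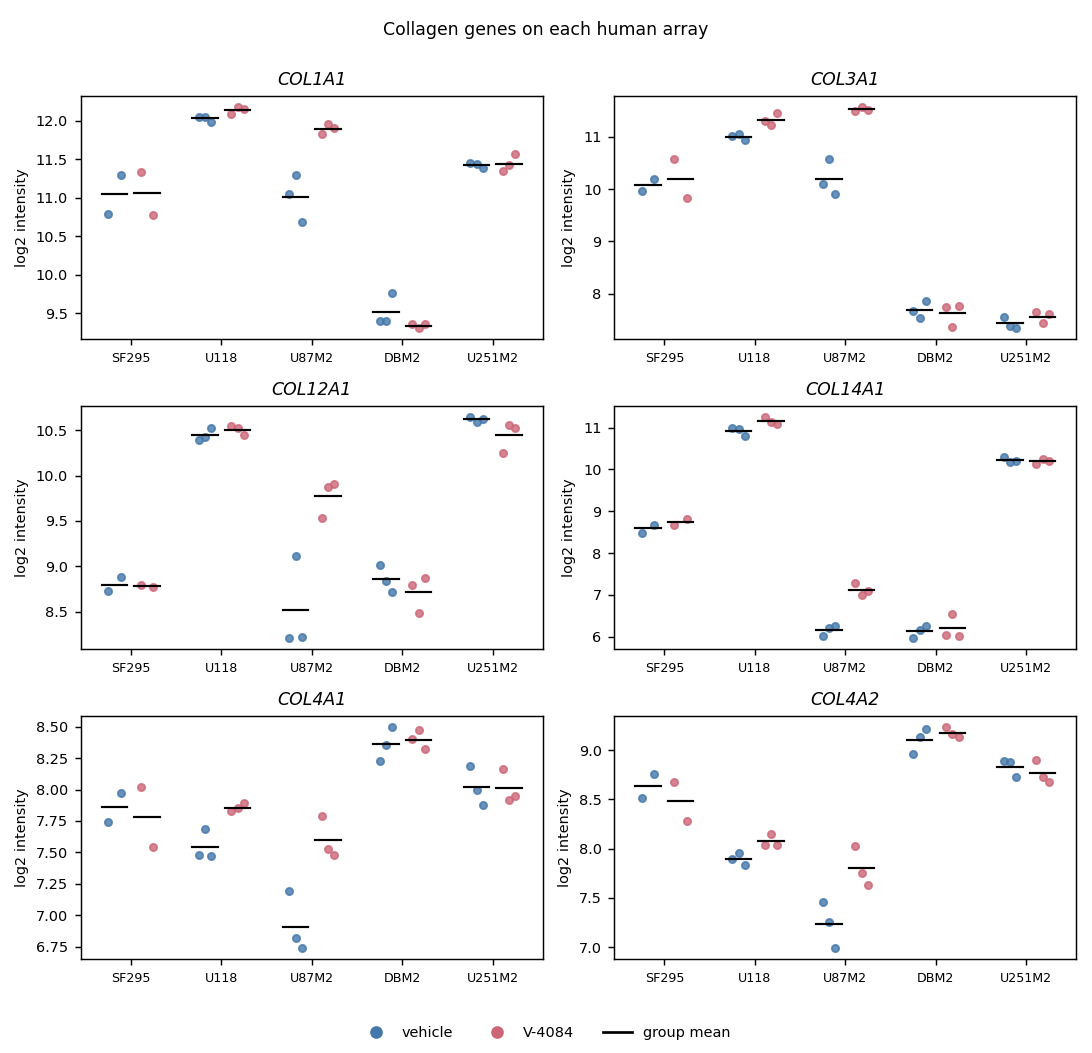
Log2 intensity of COL1A1, COL3A1, COL12A1, COL14A1, COL4A1 and COL4A2 on each human array (points) with group means (lines), by line and treatment. In U87M2 the V-4084 arrays lie above the vehicle arrays for all 6 genes, as for COL3A1 with 11.49 to 11.58 against 9.90 to 10.57.

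Genes that process collagen were followed on the same arrays. Of 8 genes for propeptide cleavage 4 were called higher and 1 lower in U87M2, where 5.37% of all genes were called higher and 9.62% lower. The procollagen proteinases BMP1, TLL1, ADAMTS3 and ADAMTS14 rose by 0.39, 0.79, 0.68 and 0.92 (log2), and PCOLCE2, an enhancer of that cleavage, fell by 1.00. Of 13 genes for prolyl and lysyl modification, P4HA2 and P3H1 were higher (0.41 and 0.40) and PLOD1 lower (-0.66), and of 7 genes for folding and export FKBP10 was higher (0.38). Of 5 cross-linking genes 0 were called and 0 had an unadjusted p under 0.05 (limma). Of 10 collagen receptors ITGA11 was higher (1.01) and ITGA2 lower (-0.95). Over the 5 lists 15 of 43 genes had an unadjusted p under 0.05 on human arrays of U87M2 (limma), against 26.1% of all genes. On mouse arrays of U87M2, 0 of the 41 genes measured from these 5 lists were called by limma, where 3.72% of all genes were. Of these 41 genes 5 had an unadjusted p under 0.05, against 14.9% of all genes.

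Markers of other cell types moved on the same U87M2 human arrays. Of 12 fibroblast markers 6 were called higher, among them DCN (1.97), LUM (1.75) and PDGFRA (1.30), and the mean of the list ran from 6.97 to 7.19 with vehicle and from 7.70 to 7.76 with V-4084. Of 10 pericyte and smooth muscle markers 4 were called higher, and the group mean of that list was 7.76 with vehicle and 8.08 with V-4084. Of 10 endothelial markers 1 was higher and 2 were lower, and of 10 macrophage markers CD68 was lower. Their part in the collagen differences was not tested.

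In the other lines 0 members were called on human arrays by limma, where 0.755% of all genes were called in U118 and 0% in SF295, DBM2 and U251M2. Unadjusted p was under 0.05 for 5 members in U118, 5 in SF295, 6 in DBM2 and 0 in U251M2, against 10.1%, 8.58%, 26.7% and 6.03% of all genes in the same order. In U118, 41 of 43 members had a positive difference, with a median of 0.18 (log2) against 0.02 for all genes. The V-4084 arrays of U118 lay entirely above the vehicle arrays for 19 members, against 13.7% of all genes, and entirely below for 2, against 13.5%. COL3A1 in U118 differed by 0.33 (SE 0.16, adjusted p = 0.499, limma).

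In SF295, 12 of 43 members had a positive difference, and the median was -0.15 against -0.02 for all genes. Without SF295 V-4084 repeat 1, which leaves the narrow-range array as the only V-4084 array of that line, 7 members were called, 1 higher and 6 lower, where 2.81% of all genes were called higher and 7.60% lower. That lone array is assumed in the fit to vary like the other groups. Medians in DBM2 and U251M2 were both 0.08, against 0.05 and 0.03 for all genes. Without DBM2 V-4084 repeat 3, which keeps the narrow-range repeat 2 in that group, 5 members were called in DBM2, 4 higher and 1 lower. In that fit 10.5% of all genes were called higher and 14.1% lower, against 0% in either direction in the main fit.

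The size of the V-4084 difference varied between the 5 lines for 6 members (moderated F test), where 5.53% of all genes were called. These were COL12A1, COL3A1, COL14A1, COL1A1, COL5A2 and COL1A2, with adjusted p from 0.000577 to 0.0233 (limma). COL12A1 differed by 1.26 in U87M2 and by -0.17 to 0.05 in the other 4 lines. COL1A1 differed by 0.88 in U87M2 and by -0.18 to 0.11 elsewhere. Without the U87M2 line 0 members were called in this test, where 0% of all genes were, and without the DBM2 line 6 were, 5 of them among those named, where 7.04% of all genes were. Without U87M2 vehicle repeat 3, or without U87M2 V-4084 repeat 2, 3 were called, where 3.73% and 3.62% of all genes were, and without SF295 V-4084 repeat 1 it was 15, where 14.2% of all genes were.

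For the average of the 5 within-line differences, 5 of 43 members were called, all higher, where 3.38% of all genes were called higher. COL3A1 averaged 0.37 (SE 0.08, adjusted p = 0.0033) and COL14A1 0.28 (SE 0.06, adjusted p = 0.00352, limma), and both kept their call whichever array was left out. COL8A1 averaged 0.25 (SE 0.08, adjusted p = 0.035, limma). Its difference was 0.67 in SF295, where vehicle arrays read 9.25 and 9.49 and V-4084 arrays 9.99 and 10.10, and 0.07 to 0.24 in the other lines. COL19A1, a FACIT collagen, averaged 0.21 (adjusted p = 0.0394) and COL24A1 0.21 (adjusted p = 0.0435, limma). The means of COL19A1 (5.92) and COL24A1 (5.87) over all human arrays lay below the median gene (7.15). The calls of COL8A1, COL19A1 and COL24A1 were lost in 12, 16 and 18 of 28 fits that left out 1 array, and all 3 were lost without the 3 narrow-range arrays, where 7 members and 11.6% of all genes were called and 2 of the 5 remained. Without the U87M2 line 0 members and 0% of all genes were called for the average. Without the DBM2 line, whose V-4084 labels disagree, it was 7 members, of which 4 were among the 5, and 9.66% of all genes. Without DBM2 V-4084 repeat 3 it was 10 members and 22.5% of all genes, and without U251M2 V-4084 repeat 3 it was 8 members and 14.5% of all genes. It was 2 or 3 without any 1 of 14 other arrays. With vehicle these were SF295 repeats 1 and 2, U118 repeats 2 and 3, U87M2 repeat 3, DBM2 repeats 1 and 2 and U251M2 repeat 2. With V-4084 they were U118 repeats 1 and 3, U87M2 repeats 1 and 2, DBM2 repeat 2 and U251M2 repeat 1. In each of these 14 fits the share of all genes called was at least 7.15% and below the 11.6% of the main fit.

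On mouse arrays V-4084 moved few collagen genes past the threshold. In U87M2 tumours Col15a1 was the 1 member called, higher with V-4084, where 2.49% of all genes were called higher. It read 8.06, 7.87 and 7.93 with vehicle and 8.25, 8.36 and 8.30 with V-4084. The groups did not overlap, and the difference was 0.35 (SE 0.10, adjusted p = 0.0444, limma). The call was lost with quantile normalization (adjusted p = 0.0674) and in 15 of 28 fits that left out 1 array. These were each of the 6 U87M2 arrays, the vehicle arrays of U118 (repeats 1, 2 and 3), DBM2 (repeat 1) and U251M2 (repeat 2), and the V-4084 arrays of U118 (repeat 2), DBM2 (repeat 3) and U251M2 (repeats 1 and 2). Without U87M2 vehicle repeat 2, 2 other members were called, where 3.37% of all genes were.

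Markers of other cell types moved on the same mouse U87M2 arrays. Of 10 macrophage markers 4 were called higher, Csf1r (0.52), Adgre1 (0.45), C1qa (0.64) and C1qb (0.47), and the mean of the list ran from 8.64 to 8.73 with vehicle and from 8.73 to 9.20 with V-4084. Of 10 endothelial markers Tek (0.43) and Vwf (0.55) were higher and Cldn5 (-1.05) lower, and the list ran from 8.59 to 8.71 with vehicle and from 8.54 to 8.86 with V-4084. Of 12 fibroblast markers Fbln1 was higher (0.65), with the list at 7.24 to 8.06 and 7.67 to 8.18. Of 10 glial and neural markers Nes was lower (-0.84), with the list at 6.74 to 6.81 and 6.60 to 6.66. Of 7 adipocyte and 10 skeletal muscle markers 0 were called. The adipocyte list ran from 6.23 to 7.10 with vehicle and from 6.61 to 7.70 with V-4084. The skeletal muscle list ran from 6.68 to 7.76 with vehicle and from 6.47 to 6.72 with V-4084. The part of these markers in the Col15a1 difference was not tested.

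Col1a1 read 11.05, 11.50 and 10.60 with vehicle and 11.37, 11.62 and 11.53 with V-4084 in U87M2 tumours. The groups overlapped, and the difference of 0.46 (SE 0.17) had an adjusted p of 0.169 (limma). Col3a1 differed by 0.43 (SE 0.19, adjusted p = 0.282) and Col12a1 by -0.15 (SE 0.30, adjusted p = 0.897). Over the 28 fits that left out 1 array, Col1a1 ran from 0.23 to 0.68 and Col3a1 from 0.18 to 0.72. Each of these genes was called in 1 of those fits. The median over the 44 members was -0.02, against 0.00 for all genes.

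In tumours of the other lines 0 members were called by limma, where 0.0100% of all genes were called in SF295 and in U118, 0% in DBM2 and 0.0401% in U251M2. Unadjusted p was under 0.05 for 1, 1, 0 and 8 members in that order, against 6.73%, 6.80%, 2.30% and 13.4% of all genes. In U251M2 the median difference was -0.11 for members and -0.04 for all genes, and 38.6% of members and 39.8% of all genes had a positive difference. The 8 members in U251M2 were all lower, from Col4a3 at -0.35 (SE 0.10, adjusted p = 0.238) to Col7a1 at -0.23 (SE 0.10, adjusted p = 0.343). For the average of the 5 lines 0 members were called and 0 had an unadjusted p under 0.05, where 0.0702% of all genes were called. For differences between lines 0 were called by limma, where 0.341% of all genes were called, and 2 members had an unadjusted p under 0.05.

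The last comparison asked whether collagen signal on a human array varied with that on the mouse array that shares its line, treatment and repeat number. By the labels the human arrays hold cultured cells and the mouse arrays hold tumours, so such a pair does not share a specimen. Within a line and treatment the repeat number is the only link between the 2 arrays. Over 27 pairs, each array's deviation from its group mean was correlated between platforms for 14334 genes, with adjustment over all these genes. With 100000 permutations among all pairs 2 of 42 collagen genes were called, COL12A1 and COL1A1, where 1.70% of all genes were called. These permutations move arrays between groups although each group's mean was removed first, so their p-values are too small. With 100000 permutations within each line and treatment, an alternative added after seeing the data, 0 collagen genes and 0% of all genes were called. The unadjusted permutation p was then under 0.05 for 4 collagen genes and for 8.20% of all genes. The correlations are therefore given as values with no call. They were positive for 21 of 42 members, with a median of 0.009, against 60.7% of all genes and a median of 0.068.

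COL12A1 correlated at r = 0.818 and rho = 0.717, and permutation within groups gave p = 0.0032 for r (adjusted p = 0.373) and 0.00263 for rho (adjusted p = 0.347). Permutation among all pairs gave adjusted p-values of 0.00398 and 0.0175. Without the 2 pairs farthest from the human median its r was 0.683, and it was 0.850 over 14 vehicle pairs and 0.734 over 13 V-4084 pairs. COL1A1 correlated at r = 0.715 and rho = 0.474, with permutation p within groups of 0.0162 (adjusted p = 0.485) and 0.0476 (adjusted p = 0.582). Among all pairs its adjusted permutation p was 0.0141 for r and 0.203 for rho. Its r was 0.767 without the 2 farthest pairs, 0.876 over vehicle pairs and 0.207 over V-4084 pairs. COL5A2 correlated at r = 0.601 and rho = 0.634, with permutation p within groups of 0.0471 (adjusted p = 0.604) and 0.0161 (adjusted p = 0.494). Among all pairs its adjusted permutation p was 0.0645 for r and 0.0471 for rho, so which gene passed beside COL12A1 turned on the statistic. Its r was 0.594 without the 2 farthest pairs, 0.829 over vehicle pairs and 0.325 over V-4084 pairs. COL8A1 correlated at r = 0.515 and rho = 0.528, with permutation p within groups of 0.0206 (adjusted p = 0.495) and 0.00991 (adjusted p = 0.466). The lowest r over all pairs was -0.464 for COL26A1, with permutation p within groups of 0.158 (adjusted p = 0.761). Over V-4084 pairs r was -0.737 for COL8A2 and -0.711 for COL20A1.

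**Figure D5:**
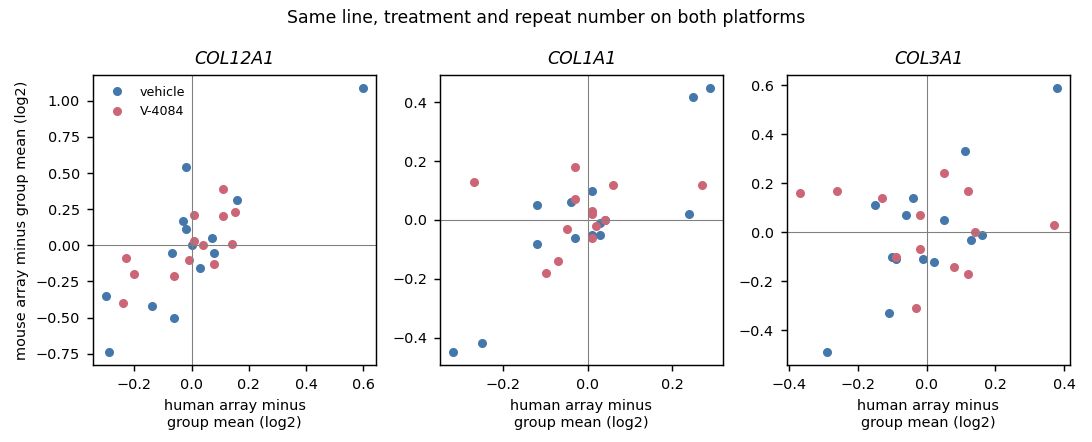
Deviation of each human array from its group mean (horizontal, log2) against that of the mouse array with the same line, treatment and repeat number (vertical, log2), for COL12A1, COL1A1 and COL3A1, with 27 pairs in each panel. The COL12A1 points run from low on both axes to high on both (r = 0.818).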

How the data were processed

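The authors deposited log2 intensities per probe set from Affymetrix whole-transcript arrays. The submitters' processing notes name RMA and Partek with no version. Values were used as deposited. Only probe sets that name 1 gene were used, and a gene with more than 1 was represented by its brightest on average. The medians of human arrays lay between 6.63 and 6.87, and those of mouse arrays between 6.11 and 6.31. Precision is limited by the number of arrays.

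Group means (10 per platform, 18 residual degrees of freedom) were fitted to all genes with limma 3.58.1 (R 4.3.3), and the fit was tested on simulated data. Two-sided p-values were adjusted (Benjamini-Hochberg) over all genes of the platform, and calls are at an adjusted p under 0.05. Correlations between platforms used permutation p-values, among all pairs and, added after seeing the data, within groups. In a comparison with 12 or fewer called members all were named, otherwise up to 4 of smallest p per class, with chain partners and COL3A1, and COL24A1 in U87M2 was named after its value was seen. For vehicle levels up to 4 per class were named. The members, the marker and pathway lists and the alternatives were chosen with earlier results of these data known. Promoter sequences are RefSeq's (GRCh38.p14).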

Additional observations from a re-analysis of the deposited data

Results flagged for a closer look

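The V-4084 difference varied between the 5 lines for 6 collagen genes on human arrays, by the moderated F test adjusted over all genes (limma). The adjusted p was 0.000577 for COL12A1, 0.00104 for COL3A1, 0.00273 for COL14A1, 0.0106 for COL1A1, 0.0176 for COL5A2 and 0.0233 for COL1A2. For COL3A1 the differences were 1.34 in U87M2, 0.33 in U118, 0.13 in U251M2, 0.11 in SF295 and -0.06 in DBM2 (log2). For COL14A1 they were 0.97 in U87M2, 0.24 in U118, 0.16 in SF295, 0.08 in DBM2 and -0.03 in U251M2. For COL5A2 and COL1A2 they were 0.83 and 0.60 in U87M2 and -0.29 and -0.24 in DBM2.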

How the results depend on the processing

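The 13 calls in U87M2 on human arrays were 11 with quantile normalization and 11 with a replicate block within each line. They were 14 with only the 2 groups compared in the fit. Without the 3 narrow-range arrays, an alternative chosen after seeing the data, they were 17. In this order 13.7%, 11.6%, 23.3% and 26.1% of all genes were called in these fits. The main fit called 5.37% of all genes higher and 9.62% lower. Of the average's 5 calls 3 remained with the replicate block and 0 without the U87M2 line, and of the 6 calls for differences between lines 3 and 0. With the block 6.14% of all genes were called for the average and 3.19% for differences between lines, against 11.6% and 5.53% in the main fit. Without the U87M2 line 0% of all genes were called in either. The mouse U87M2 call was 0 with quantile normalization and 0 with only its groups in the fit. In these fits 5.17% and 2.64% of all genes were called, against 3.72% in the main fit. With permutation among pairs of all groups, whose p-values are too small, the correlation between platforms gave 2 genes over all pairs. It gave 6 over vehicle pairs alone and 0 over V-4084 pairs alone. These counts have no share of all genes beside them and are not read as a result about collagens. With permutation within groups, an alternative added after seeing the data, 0 collagen genes and 0% of all genes were called in all 3 settings. The unadjusted permutation p was then under 0.05 for 6 collagen genes and 14.2% of all genes over vehicle pairs. Over V-4084 pairs it was 2 collagen genes and 5.08% of all genes. The cause of these changes was not tested. Repeat numbers were not used as pairs in the main fit. Deviations of same-numbered arrays correlated above 0.1 in 3 of 14 human and 3 of 13 mouse pairs. They ran from -0.52 to 0.318 on human arrays and from -0.349 to 0.297 on mouse arrays. In human U87M2 they were 0.22, 0.011 and 0.318. Groups of 2 or 3 arrays are too small to show whether same-numbered arrays were paired, which the labels do not state. Leaving out each array in turn gave 10 to 14 calls for human U87M2, 2 to 10 for the average, 3 to 15 for differences between lines, 27 to 31 for vehicle levels, 0 to 7 for SF295 and 0 to 5 for DBM2, and on mouse arrays 0 to 2 for U87M2 and 35 to 43 for vehicle levels. In these fits 9.50% to 19.3% of all genes were called in human U87M2. The share of all genes reached 22.5% for the average, 63.1% for vehicle levels on human arrays and 24.6% for DBM2. No call changed direction under any alternative run.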
